A study of Mus musculus with 4 samples.

Results

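The genes described here encode proteins of the red cell membrane skeleton and of the red cell surface, some of which carry blood group antigens. They were chosen by symbol from the deposited table of normalized counts, as Slc4a1, Ank1, Sptb, Epb42, Rhag, Rhd, Kel and Ermap. All 8 were found among the 16673 genes analysed, and all 8 passed the filter of a mean of at least 10 normalized counts. The RNA came from Lin– bone marrow, the cells left once those bearing surface markers of mature blood lineages are taken away, of 4 mice aged 2 months. The mice labelled cKO (n = 2) were Tie2+/cre; Tet3F/F, which carry floxed Tet3 alleles and a Cre recombinase driven by Tie2 (Tek). That promoter acts in endothelial cells and in the early blood cells that arise from them, so recombination is not limited to erythroid cells. The mice labelled control (n = 2) were Tet3F/F, with the same floxed alleles and no Cre. TET3 is one of the enzymes that oxidise 5-methylcytosine in DNA, and the comparison asks how transcripts differ in Lin– cells when its gene is targeted. The labels do not name the antibodies of the lineage depletion.

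Red cells owe their shape and strength to a meshwork of spectrin and actin beneath the lipid bilayer. Ankyrin ties the beta spectrin chain to band 3, the anion exchanger, and protein 4.2 stabilises that link, while the Rh proteins and their associated glycoprotein sit in the same complex. Most of these genes are switched on as progenitors commit to the erythroid line, under GATA1 and KLF1, and band 3 and protein 4.2 build up late in maturation. In human erythroid cultures the Kell and Rh-associated glycoproteins reach the surface before band 3. Defects in the ankyrin, spectrin, band 3 or protein 4.2 genes cause spherocytosis in humans and mice.

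Promoter sequence was not used in the choice of these genes. RefSeq windows of build GRCm38.p6 were matched by symbol for 6 genes, and Slc4a1 and Ank1 were not matched. Over the 250 bases before the start, 5 of the 6 windows held AGATAA or TGATAA, the letters that GATA factors favour, on either strand, against 16.6% of all 32851 windows in the table. Within 120 bases of the start, 4 of the 6 had such a match, against 7.63% of all windows. These were the surface genes Rhag, Rhd, Kel and Ermap. The motifs were chosen after the windows were read, so these shares are a description and no test. These 120 bases are shown because they hold every match of the 4 genes, in capitals (TTATCA is TGATAA on the opposite strand), each read 5′ to 3′ along its gene and ending at the base before the start.
Rhag, chr17:40811029-40811148, plus strand: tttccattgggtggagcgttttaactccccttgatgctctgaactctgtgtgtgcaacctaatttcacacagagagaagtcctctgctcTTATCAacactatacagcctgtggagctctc
Rhd, chr4:134864416-134864535, plus strand: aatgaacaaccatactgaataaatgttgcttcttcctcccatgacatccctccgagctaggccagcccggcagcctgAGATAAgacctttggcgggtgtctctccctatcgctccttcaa
Kel, chr6:41704326-41704445, minus strand: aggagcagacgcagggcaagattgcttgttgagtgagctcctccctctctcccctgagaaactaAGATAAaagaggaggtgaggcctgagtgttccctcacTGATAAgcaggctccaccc
Ermap, chr4:119189996-119190115, minus strand: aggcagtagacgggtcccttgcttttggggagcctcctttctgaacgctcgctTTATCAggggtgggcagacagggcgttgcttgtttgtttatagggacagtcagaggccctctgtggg

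The matches began 31 bases before the start in Rhag, 43 in Rhd, 67 in Ermap, and 56 and 19 in Kel, which held both forms. Epb42 had its match 226 bases before the start, outside the stretch nearest the gene, and Sptb had none in its window. CACCC, the core of the sites bound by KLF1, was present on either strand in 5 of the 6 windows of 250 bases, all but Epb42, but it is a common string that 52% of all windows held. The E-box CAGCTG was found in 1 of the 6 windows, that of Epb42, and TATAAA in 2, those of Epb42 and Ermap, on either strand, against 13% and 12.4% of all windows. A match in these letters is a description of the sequence and does not show that a factor binds there.

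For none of the 8 genes was the difference between cKO and control larger than the spread between mice. Every one was highest in control replicate 2, as were 34% of all 16598 genes tested. In every one the cKO and control libraries overlapped, while over all genes tested the groups did not overlap for 38.7%. The order control 2, cKO 1, control 1, cKO 2 held for 7 of the 8 genes, all but Ermap, and for 4.54% of the genes tested. Together the 8 genes took 0.067% and 0.0215% of reads in cKO replicates 1 and 2 (Wilson 95% intervals 0.066 to 0.0679 and 0.021 to 0.022), against 0.034% and 0.117% in control replicates 1 and 2 (0.0334 to 0.0346 and 0.116 to 0.118). The libraries of each group thus differed by more than the means of the groups did. These are bulk samples, so fewer erythroid cells and less RNA per cell cannot be told apart, and the intervals cover counting error only.

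Slc4a1, which encodes band 3, had the widest range. It had 6266 and 335 normalized counts in cKO replicates 1 and 2, against 3526 and 10874 in control replicates 1 and 2. The low value rested on 292 reads in cKO replicate 2, far below the other 3 libraries, while cKO replicate 1 lay between both controls. Epb42, the gene of protein 4.2, which binds band 3, had the same shape, with 639 and 83.9 normalized counts in the cKO libraries, against 299 and 1113 in the control libraries. Its lowest library held 73 reads, the fewest of any of the 8 genes.

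The genes of the skeleton below band 3 were spread less. Ank1, the gene of erythroid ankyrin, had 2917 and 1028 normalized counts in cKO libraries, against 1479 and 5659 in control libraries. Its exons overlap those of the antisense gene Gm15816 in GENCODE M21, and the labels do not say whether reads were counted by strand, so part of its reads could belong to either gene. Gm15816 had 12.8 and 14.9 normalized counts in cKO libraries, against 5.54 and 57.4 in control libraries. Sptb, the beta chain of erythroid spectrin, had 2751 and 670 normalized counts in cKO libraries, against 1549 and 6011 in control libraries. In both genes cKO replicate 1 lay inside the range of the controls and cKO replicate 2 below it.

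The Rh pair moved closely with each other. Rhag, the glycoprotein that carries Rh proteins to the surface, had 1563 and 811 normalized counts in cKO libraries, against 895 and 3626 in control libraries. Rhd, the mouse Rh blood group gene, had 1386 and 597 normalized counts in cKO libraries, against 924 and 3537 in control libraries. For both, cKO replicate 2 was the lowest library, and it was closer to control replicate 1 than in the case of Slc4a1 or Epb42. Kel, a surface endopeptidase that carries the Kell antigens in humans, had 1612 and 738 normalized counts in cKO libraries, against 923 and 3000 in control libraries. Ermap, a surface protein of the immunoglobulin superfamily that carries the Scianna antigens in humans, had 5413 and 3146 normalized counts in cKO libraries, against 2707 and 9747 in control libraries. Ermap was the one gene of the 8 in which cKO replicate 2 lay above control replicate 1.

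**Figure D1:**
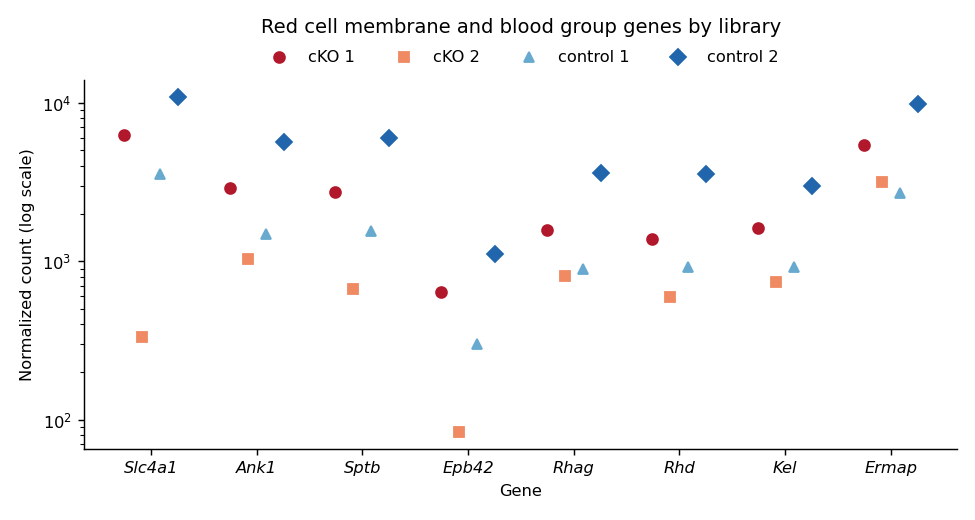
Normalized counts (log scale) of the 8 genes, 1 point per library, with cKO replicates in red and orange left of the control replicates in blue. Control replicate 2 is highest for every gene, and cKO replicate 2 drops furthest for Slc4a1 (335) and Epb42 (83.9).

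The comparison of cKO with control called 0 of the 8 genes with limma on log2(normalized count + 1) at a Benjamini-Hochberg adjusted p under 0.05. Over all genes tested the share called was 0.0723%, or 12 genes, so a count of 0 among 8 is no result about these genes. At an unadjusted p under 0.05 the count was also 0, against 6.10% of all genes. On the recovered reads edgeR called 0 of the 8 at an adjusted p under 0.05 (0.0723% of all genes) and 0 at an unadjusted one (6.13% of all genes). DESeq2 likewise called 0 of the 8 by each rule (0.645% and 7.24% of all genes). The log2 fold change, cKO minus control, lay below 0 in all 8, with a median of -0.86 beside 0.01 over all genes tested. Because the 8 genes move together from library to library, that shared sign does not stand for 8 separate observations.

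Slc4a1 averaged 3301 ± 4194 normalized counts in cKO and 7200 ± 5196 in control (SD, n = 2 each). Its log2 fold change was -2.09 (SE 1.18, 95% interval -4.85 to 0.67), with an adjusted p of 0.76 from limma with Benjamini-Hochberg adjustment. On the count scale of edgeR the same gene had -1.12, since that model averages counts and not logs. The SD exceeded the mean in cKO, so the size of this difference is poorly fixed by 2 mice per group.

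The other skeleton genes had log2 fold changes of -1.31 for Epb42 (95% interval -3.50 to 0.88), -1.17 for Sptb (-2.93 to 0.59) and -0.74 for Ank1 (-2.28 to 0.80). Among the surface genes the log2 fold changes were -0.99 for Rhd (-2.44 to 0.46), -0.68 for Rhag (-2.10 to 0.74), -0.61 for Kel (-1.92 to 0.70) and -0.32 for Ermap (-1.59 to 0.96). All 8 intervals include 0. Their limma adjusted p-values with Benjamini-Hochberg adjustment ran from 0.76 to 0.90.

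Single libraries set these values. Without cKO replicate 2 the median of the 8 log2 fold changes was -0.02, and without control replicate 2 it was 0.10, with 4 genes above 0 and 4 below in both cases. Without cKO replicate 1 the median was -1.54, and without control replicate 1 it was -1.83. Leaving out cKO replicate 1 was the one setting in which limma called any of the 8. It called Slc4a1, with a log2 fold change of -4.20 and a Benjamini-Hochberg adjusted p of 0.0012, where 0.157% of all genes were called. The cKO group is then a single mouse, assumed to vary like the others.

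**Figure D2:**
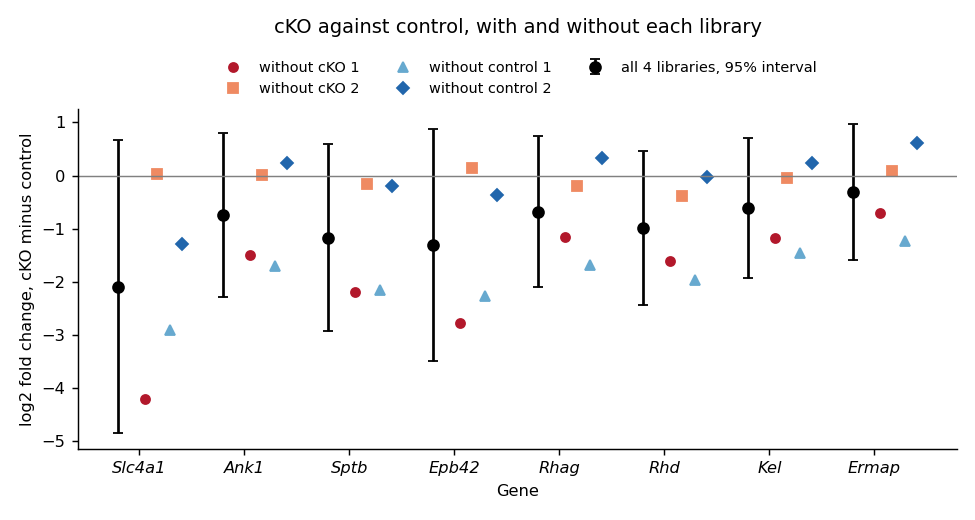
Log2 fold change of cKO minus control for the 8 genes, with all 4 libraries (black, limma 95% interval) and with each library left out (coloured points). Every interval crosses 0, and the values without cKO replicate 2 lie near 0, from -0.38 to 0.15.

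The 8 genes were alike between the control mice and unlike between the cKO mice. The ratio of control replicate 2 to control replicate 1 was 3.08 for Slc4a1, the lowest, and 4.05 for Rhag, the highest. The ratio of cKO replicate 1 to cKO replicate 2 was 18.7 for Slc4a1 (95% counting interval, exact binomial, 16.6 to 21.1), and 7.61 for Epb42 (5.96 to 9.86). It was 4.11 for Sptb (3.75 to 4.51) and 2.84 for Ank1 (2.63 to 3.07). The surface genes came last, with 2.32 for Rhd (2.09 to 2.58), 2.19 for Kel (1.99 to 2.40), 1.93 for Rhag (1.76 to 2.11) and 1.72 for Ermap (1.64 to 1.80). The intervals of Slc4a1, Epb42, Sptb and Ank1 did not overlap one another, while those of Rhd, Kel and Rhag overlapped, as did those of Rhag and Ermap. These intervals cover 2 libraries and say nothing of how other cKO mice would differ.

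**Figure D3:**
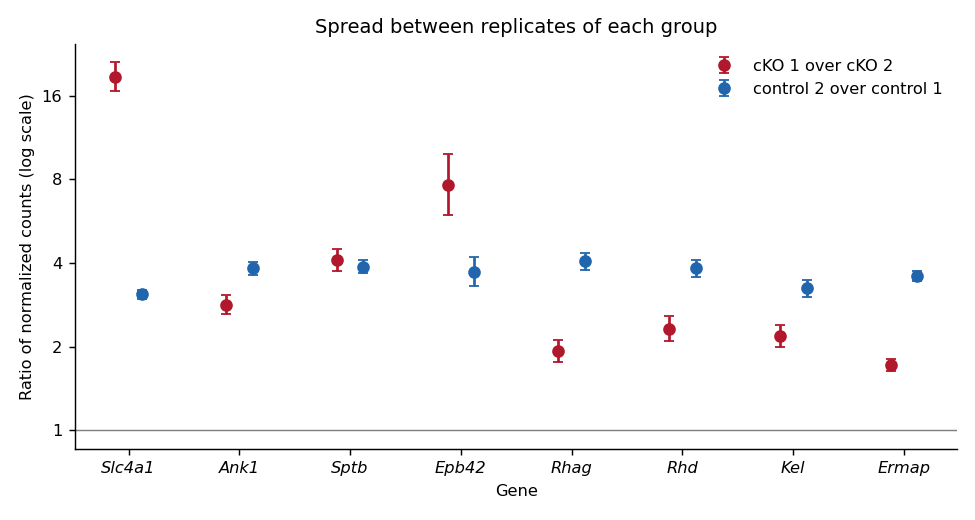
Ratio of normalized counts between the replicates of each group (log scale), cKO 1 over cKO 2 in red and control 2 over control 1 in blue, with exact 95% counting intervals. The control ratios lie between 3.08 and 4.05, and the cKO ratios run from 1.72 for Ermap to 18.7 for Slc4a1.

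Ratios between partner genes within a library do not depend on the size factor, and only their change between libraries is read here, since the genes differ in length. The ratio of Slc4a1 to Ank1 was 2.15 and 0.326 in cKO replicates 1 and 2, against 2.38 and 1.92 in control replicates 1 and 2. The ratio of Sptb to Ank1 was 0.943 and 0.651 in cKO, against 1.05 and 1.06 in control. Slc4a1 was low relative to Ank1 in cKO replicate 2 only of the 4 libraries, while the ratio of Sptb to Ank1 was lower in both cKO libraries than in both control libraries. The ratio of Slc4a1 to its partner Epb42 was 9.81 and 4.0 in cKO, against 11.8 and 9.77 in control. The ratio of Rhd to Rhag varied least of these, with 0.887 and 0.737 in cKO, against 1.03 and 0.975 in control. It too was lower in both cKO libraries than in both control libraries. For this ratio and that of Sptb to Ank1, 2 against 2 cannot give an exact permutation p below 0.33. Groups did not overlap for 38.7% of single genes tested, and no such share was taken over gene ratios. Neither ratio is thus read as a group difference.

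The level of the 8 genes was also set against 8 erythroid transcription factor genes of the same library (Gata1, Klf1, Tal1, Nfe2, Gfi1b, Zfpm1, Lmo2 and Ldb1), several of which also act in other blood cells. The median of the 8 membrane and surface genes minus the mean of these factors was -0.86 and -2.26 log2 units in cKO replicates 1 and 2, against -1.33 and -0.51 in control replicates 1 and 2. Control replicate 2 thus stayed highest and cKO replicate 2 lowest after this scaling. Relative to the factors, Slc4a1 lay at 0.71 and -3.33 log2 units in cKO, against 0.26 and 0.76 in control. Ermap moved least, with 0.50 and -0.10 in cKO, against -0.12 and 0.60 in control.

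**Figure D4:**
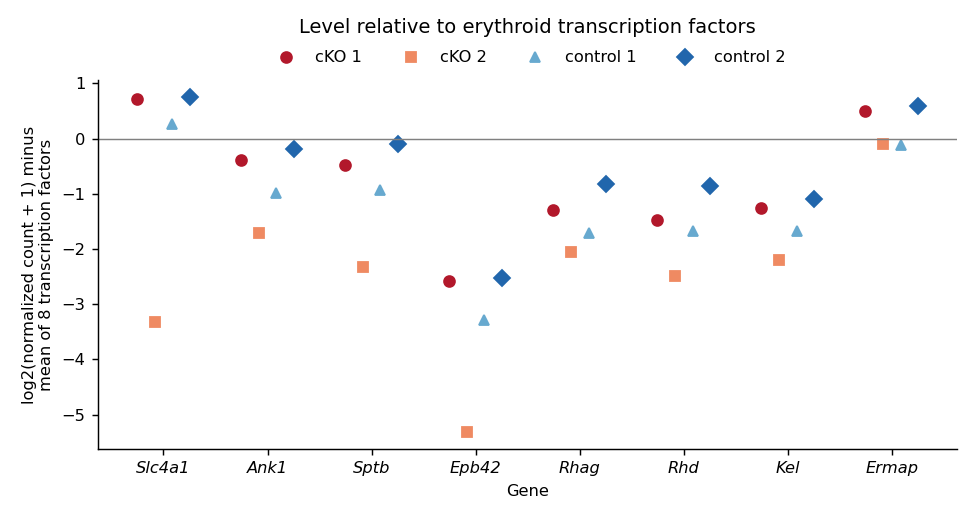
Level of each gene as log2(normalized count + 1) minus the mean of 8 erythroid transcription factor genes in the same library, 1 point per library. In cKO replicate 2 the values for Slc4a1 (-3.33) and Epb42 (-5.32) are far below those of the other 3 libraries, whereas those for Ermap lie between -0.12 and 0.60.

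Of 28 other red cell membrane genes listed, 27 were analysed, and 0 passed the limma test in either direction, with 1 at an unadjusted p under 0.05 and a median log2 fold change of -0.17. That gene was Dmtn, dematin, an actin-bundling protein of the skeleton, with 639 and 172 normalized counts in cKO, against 592 and 2260 in control (log2 fold change -1.80, limma with Benjamini-Hochberg adjusted p of 0.76). Add2, the beta chain of adducin, which caps actin, had 1345 and 977 normalized counts in cKO, against 802 and 3134 in control, and here cKO replicate 2 lay above control replicate 1 as in Ermap. By the smallest p-values the next genes were Aqp3, an aquaporin with 21.0 and 23.0 in cKO, against 1.85 and 6.38 in control, Abcb6, a porphyrin transporter with 166 and 109, against 177 and 353, and Slc29a1, a nucleoside transporter with 3704 and 4224, against 4700 and 5543.

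Some members of the list varied little between libraries and others did not follow the erythroid order. Stom, stomatin, had 8700 and 8465 normalized counts in cKO, against 9345 and 7710 in control. Epb41, protein 4.1, which joins spectrin to actin, had 5399 and 4206 in cKO, against 4226 and 5241 in control. Slc2a1, a glucose transporter, had 796 and 803 in cKO, against 1004 and 588 in control, lowest in the library where the 8 genes were highest. Piezo1, a stretch-gated channel, had 5429 and 3638 in cKO, against 4973 and 3453 in control. Over the list the ratio of cKO replicate 1 to cKO replicate 2 had a median of 1.23, and that of control replicate 2 to control replicate 1 a median of 1.72, against 2.58 and 3.77 for the 8 genes described here.

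Relatives of the 8 genes that serve other cells had a different pattern. Of 10 listed, 7 were analysed, and 0 passed the limma test, with 0 at an unadjusted p under 0.05 and a median log2 fold change of 0.25. Sptbn1, the beta spectrin of non-erythroid cells, had 10869 and 8739 normalized counts in cKO, against 9257 and 4943 in control, lowest in the library where Sptb was highest. Slc4a2, an anion exchanger found in most tissues, had 1797 and 1551 in cKO, against 1756 and 1561 in control. Ece1, an endopeptidase related to Kell, had 1498 and 1323 in cKO, against 1324 and 1060 in control. The remaining relatives were low or not steady, such as Slc4a3 with 28.0 and 27.6 in cKO, against 8.31 and 19.1 in control.

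Other erythroid genes differed between the cKO mice by unequal amounts. The 8 transcription factor genes had ratios of cKO replicate 1 to cKO replicate 2 from 0.896 to 1.40, and 0 of 8 passed the limma test, with 0 at an unadjusted p under 0.05 and a median log2 fold change of -0.29. The log2 fold changes of the 4 with the smallest p-values were -0.25 for Nfe2, -0.56 for Gata1, -0.19 for Lmo2 and -0.28 for Ldb1. Gata1 had 2020 and 1565 normalized counts in cKO, against 1369 and 5005 in control, and Klf1 1728 and 1453, against 1097 and 3458. Of 6 early erythroid genes 0 passed, with 0 at an unadjusted p under 0.05 and a median of -0.52. Epor, the erythropoietin receptor, had 1011 and 887 normalized counts in cKO, against 737 and 2582 in control, and Tfrc, which takes up iron-bound transferrin, 11368 and 7339, against 10096 and 16814. Trim10, a gene of late erythroid maturation in mice despite its place in that list, had 545 and 55.1 normalized counts in cKO, against 319 and 1251 in control. Of 13 haemoglobin and heme genes analysed 0 passed, with 3 at an unadjusted p under 0.05 (Alad, Hbb-bt and Hba-a1) and a median of -0.70. Alas2, the erythroid enzyme that starts heme synthesis, had 776 and 33.3 normalized counts in cKO, against 489 and 1550 in control. Its ratio between the cKO replicates was 23.3, and those of the 4 haemoglobin genes ran from 6.68 for Hbb-bt to 36.4 for Hba-a2, beside 18.7 for Slc4a1. The median ratio over the 13 genes was 1.63, and the other heme genes were lower than Alas2, from 0.998 for Alad to 1.88 for Slc25a37.

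The 5 genes whose pattern over the 4 libraries came closest to the mean of the 8 included Sec14l2, Fn3k, Hemgn and Btnl10, by the root mean square difference of centred log2 values, which ran from 0.092 to 0.131. Hemgn, an erythroid nuclear protein, had 2232 and 780 normalized counts in cKO, against 1349 and 4613 in control. By the same measure Sptb lay at 0.118 and Ank1 at 0.174 from the mean of the 8, while Ermap lay at 0.503 and Slc4a1 at 1.01. All of the 8 but Sptb lay farther from their own mean than the 5 genes did. The 5 were picked as the closest genes, so this says nothing of how alike the 8 are.

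Facts of the libraries bear on all of this. Reads counted to genes were 28845037 and 30020188 in cKO replicates 1 and 2, against 39199593 and 46673855 in control replicates 1 and 2. Control replicate 2 stood apart, with 8.16% of its reads on 13 mitochondrial protein genes, against 0.989% to 1.26% in the other libraries, and with correlations of 0.932 to 0.947 to them across genes. Erythroid markers were present in every library, with a sum over 8 of them of 32008 and 12728 normalized counts in cKO, against 26068 and 71232 in control. Kit, a progenitor marker, had 10915 to 14050 normalized counts over the 4 libraries. The summed level of 7 neutrophil markers was 342602 and 424666 normalized counts in cKO, against 542910 and 171713 in control. Mpo held the largest part of this sum, with 247093 and 263946 in cKO, against 343617 and 82908 in control. Mpo, Elane, Ltf and Ngp were lowest in control replicate 2, where the erythroid genes were highest. Prtn3, Camp and S100a8 were lowest in cKO replicate 1 instead. The sum of 4 T and NK cell markers was 4733 and 3437 in cKO, against 913 and 1529 in control, and the median of their log2 fold changes was 2.03. In limma all 4 were at an unadjusted p under 0.05, and 0 passed the adjusted threshold. That of 6 megakaryocyte markers was 7521 and 7380 in cKO, against 5763 and 12056 in control, and that of 6 stem and progenitor markers 36599 and 34573, against 29267 and 27243. Sums of 4 macrophage markers were 2420 and 3606 in cKO, against 3155 and 2085 in control, and of 4 B cell markers 533 and 155, against 150 and 171. No defining marker of these lists that was analysed stood at 0 in any library. The deposited values held no gene with fewer than 41 reads summed over the libraries. The listed markers Ahsp, Gp1bb, Gp6, Ly6g and Mertk were not among them. The lack of a 0 therefore does not show that each cell type was present. The part of these shifts in the values of the 8 genes was not tested.

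Tet3 itself had 6400 and 5084 normalized counts in cKO, against 5056 and 6593 in control (log2 fold change -0.02, SE 0.22). The labels do not name the floxed exons, and reads from the rest of the gene are in this count, so it is no check of genotype or labels, and cKO and control are used here as the labels give them. Xist had 87442 and 48951 normalized counts in cKO, against 5.54 and 9.57 in control, and 4 genes of the Y chromosome (Ddx3y, Eif2s3y, Kdm5d and Uty) had 0 reads in both cKO libraries, against 833 to 5408 in the control libraries. Genotype and sex therefore cannot be told apart in any value given here.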

How the data were processed

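RNA-seq of Lin– bone marrow cells was made from 4 mice, 2 per genotype, and each mouse is a separate library. The deposited table holds a signal for each gene, its read count after division by the size factor the authors set per library, per the file headers. The submitters' processing notes name Trim Galore 0.6.7, STAR 2.7.9a, featureCounts, DESeq2 and SAMtools, and build mm39. They name no annotation or strand setting. Control columns are headed wild type and were matched by group and number. In each library every value (100%, within 0.1 read) was a whole multiple of 1 step, taken as 1 read, and dividing by it gave the reads. Replicates differed by more than counting noise (chi-square of counts, per degree of freedom, of 37.7 for cKO and 294.6 for control).

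Groups were compared with limma 3.58.1, run in R 4.3.3, with a variance trend and log2(normalized count + 1) as input, two-sided, over genes whose mean was at least 10. Adjustment was by Benjamini-Hochberg over all genes, with a threshold of 0.05. A fold change on that scale understates the change of low genes. The alternatives changed the pseudocount (0.5, 10), the filter (none, mean of at least 50), the scaling (TMM, quantile), the variance trend and the replicate block, or left out each library. edgeR 4.0.16 and DESeq2 1.42.0 were run on the recovered reads and called 12 and 107 genes. The steps were tested on simulated data.

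The genes, lists, tests and alternatives were chosen with earlier results of these data known. The genes named are the 8, up to 4 of each list with the smallest p-values, and the 5 nearest in pattern. Some genes this rule takes are left unreported. Stom, Epb41, Slc2a1, Piezo1, Slc25a37, Add2, Slc4a2, Klf1 and Alas2 were named after their values were seen, and the promoter motifs were chosen after the windows were read. Promoter windows are from RefSeq (GRCm38.p6), another build than that of the reads, and overlaps of exons are from GENCODE M21 (GRCm38).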

Additional observations from a re-analysis of the deposited data

How the results depend on the processing

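With 2 mice per group, depth limits these values less than the spread between mice. Under the pseudocounts, filters, scalings, variance model, replicate block, edgeR and DESeq2, all 8 genes kept a log2 fold change below 0 and none was called. Leaving out each library in turn gave log2 fold changes of -4.20 to 0.02 for Slc4a1, -1.71 to 0.23 for Ank1, -2.19 to -0.15 for Sptb, -2.77 to 0.15 for Epb42, -1.69 to 0.33 for Rhag, -1.96 to -0.02 for Rhd, -1.46 to 0.24 for Kel and -1.24 to 0.61 for Ermap. The sign turned for Ank1 (0.23), Rhag (0.33), Kel (0.24) and Ermap (0.61) without control replicate 2, and for Slc4a1 (0.02), Ank1 (0.01), Epb42 (0.15) and Ermap (0.08) without cKO replicate 2. The number of the 8 called ran from 0 to 1, the call being Slc4a1 without cKO replicate 1 (-4.20), and their median from -1.83 to 0.10. A group left with 1 library is assumed to vary like the other. Over all genes, 5 were called higher and 7 lower. The higher count was 2 with a mean of at least 50, with quantile scaling and without a variance trend, and 3 with the replicate number as a block, where the lower count was 5. Same-numbered libraries had deviations with a correlation of -0.07 over genes. With 2 libraries per group, that value cannot show whether the numbers pair the mice. DESeq2 called 71 higher and 36 lower. With each library left out, the higher count ran from 4 to 232 and the lower from 5 to 161, both highest without control replicate 1, and the lower count was 22 without cKO replicate 1 and 12 without cKO replicate 2. The cause was not tested. The level relative to the transcription factor genes moved by less than the spread between replicates under the pseudocounts and scalings tried. It is a difference within a library, in which the TMM rescaling nearly cancels, so that setting is no check of it.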
